A study of Mus musculus with 18 samples.

Results

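Transcripts of 9 genes that mark neuroendocrine cells were followed through 6 sorted cell populations of the mouse airway and lung. The genes were Calca, Chga, Chgb, Syp, Uchl1, Scg5, Insm1, Resp18 and Ddc, listed by name and found by their Entrez identifiers among the 27179 genes of the count tables. All 9 passed a minimum of 0.2 CPM (the reads of a gene scaled to the counted reads of its library) in at least 3 libraries, as did 17989 genes in total. The 18 libraries were made from untreated, uncultured cells of C57BL/6 mice. NGFR-positive basal cells and NGFR-negative cells, here called non-basal, came from the tracheal epithelium of mice 1 to 3, with 3 libraries each. The other 4 gates, also with 3 libraries each, came from the lungs of mice 4 to 6. EpCAM-positive, CD104-positive airway luminal cells were divided into a CD24hi gate, which the labels describe as enriched in ciliated cells, and a CD24lo gate, described as enriched in club cells. EpCAM-positive cells with low CD104 were the alveolar gate, and EpCAM-negative cells the non-epithelial one. No gate was drawn on the products of the 9 genes.

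Neuroendocrine cells are rare sensory and secretory cells of the airway epithelium, found singly in the trachea and large airways and in innervated clusters within the lung. They respond to oxygen and other stimuli, store peptides and amines in dense-core granules, and release them onto nerves and neighbouring cells. Insm1, a zinc finger factor, acts in their differentiation. Chromogranins and related proteins build the granule, convertases and their helpers mature its peptides, and vesicle proteins release it. Some of these genes are also used outside neuroendocrine cells, and a bulk library cannot tell fewer cells of a type from less RNA per cell.

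The promoters of Chga, Chgb and Resp18 are shown because these 3 secretory granule genes peaked in different gates or to different degrees, as described below. Each is the 250 bases before the start of transcription in the RefSeq promoter table (GRCm38.p6), 5′ to 3′ on the gene's strand. Capitals mark an E-box (CAGCTG) or a cyclic AMP response element (TGACGTCA).
Chga, chr12:102554691-102554940, plus strand: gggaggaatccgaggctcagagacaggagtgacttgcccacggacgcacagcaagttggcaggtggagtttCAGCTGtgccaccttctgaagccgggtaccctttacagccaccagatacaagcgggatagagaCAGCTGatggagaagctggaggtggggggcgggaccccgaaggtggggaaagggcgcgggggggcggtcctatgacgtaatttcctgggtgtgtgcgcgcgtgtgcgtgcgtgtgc
Chgb, chr2:132781392-132781641, plus strand: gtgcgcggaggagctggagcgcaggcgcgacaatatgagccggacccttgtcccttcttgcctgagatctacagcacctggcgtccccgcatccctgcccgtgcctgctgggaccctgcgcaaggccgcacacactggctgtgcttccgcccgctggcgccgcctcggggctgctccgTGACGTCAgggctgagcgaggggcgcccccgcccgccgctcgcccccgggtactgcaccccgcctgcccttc
Resp18, chr1:75278416-75278665, minus strand: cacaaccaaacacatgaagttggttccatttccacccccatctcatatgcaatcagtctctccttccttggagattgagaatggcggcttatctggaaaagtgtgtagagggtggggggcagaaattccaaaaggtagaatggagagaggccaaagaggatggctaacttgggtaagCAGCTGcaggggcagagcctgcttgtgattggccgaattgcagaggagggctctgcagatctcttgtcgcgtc

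CAGCTG stood in the Chga promoter at 179 to 174 and at 116 to 111 bases before the start, and in the Resp18 promoter at 73 to 68 bases before it. Of the 8 members with an entry, these 2 held it, and 14.7% of the 27025 genes with a promoter of the same length did. TGACGTCA stood in the Chgb promoter at 72 to 65 bases before the start, and 1.77% of genes held it. A TATA box (TATAAA) was found in Ddc among the 8 and in 14.3% of genes, and the left arm of the element bound by the repressor Rest (TTCAGCACC) was found in 0 of the 8 and in 0.348% of genes. Both strands were searched, the motifs do not overlap one another here, and a match is a description of letters. Insm1 has no entry in the table.

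The tracheal libraries held 29317215 to 32993621 counted reads and the lung libraries 9811503 to 13208897, so that 1 read weighed more in lung. Krt5, a keratin of basal cells, was 7.79% as high in non-basal as in basal cells. All 6 ciliated markers were highest in the CD24hi gate, all 5 alveolar type 2 markers in the alveolar gate and all 6 fibroblast markers in the EpCAM-negative gate. The 3 club markers summed highest in CD24lo cells, yet 2 of them were highest in non-basal cells, and of 4 alveolar type 1 markers 1 was highest in the alveolar gate. Replicates within a gate differed by more than sampling noise, and no 2 libraries were copies. The gates of an organ came from the same 3 mice, but the main fit took no account of this pairing. Its p-values rest on the spread between replicate libraries, estimated over all 6 gates together. Comparisons across organs set different mice against each other.

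The non-basal tracheal gate had the highest level of 6 of the 9 genes, Calca, Chga, Chgb, Scg5, Insm1 and Ddc. The remaining 3 peaked in the lung, Syp in EpCAM-negative cells, Uchl1 in CD24hi cells and Resp18 in CD24lo cells. Summed over all 9, the non-basal libraries held 33.3 ± 4.29 CPM (SD, n = 3) and the CD24hi libraries 31.1 ± 6.45 CPM, whose ranges overlapped. Leaving out Syp and Uchl1, which peaked in lung, while keeping Resp18, which did too, favours the non-basal gate by construction. Without Syp and Uchl1, the sum was 27.3 ± 3.11 CPM in non-basal cells, 12.8 ± 2.81 in CD24lo, 5.07 ± 1.54 in alveolar, 3.62 ± 0.487 in EpCAM-negative, 3.00 ± 0.786 in CD24hi and 1.41 ± 0.211 in basal cells. The 9-gene sum of CD24hi cells therefore consisted largely of Uchl1, and that of EpCAM-negative cells largely of Syp.

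**Figure D1:**
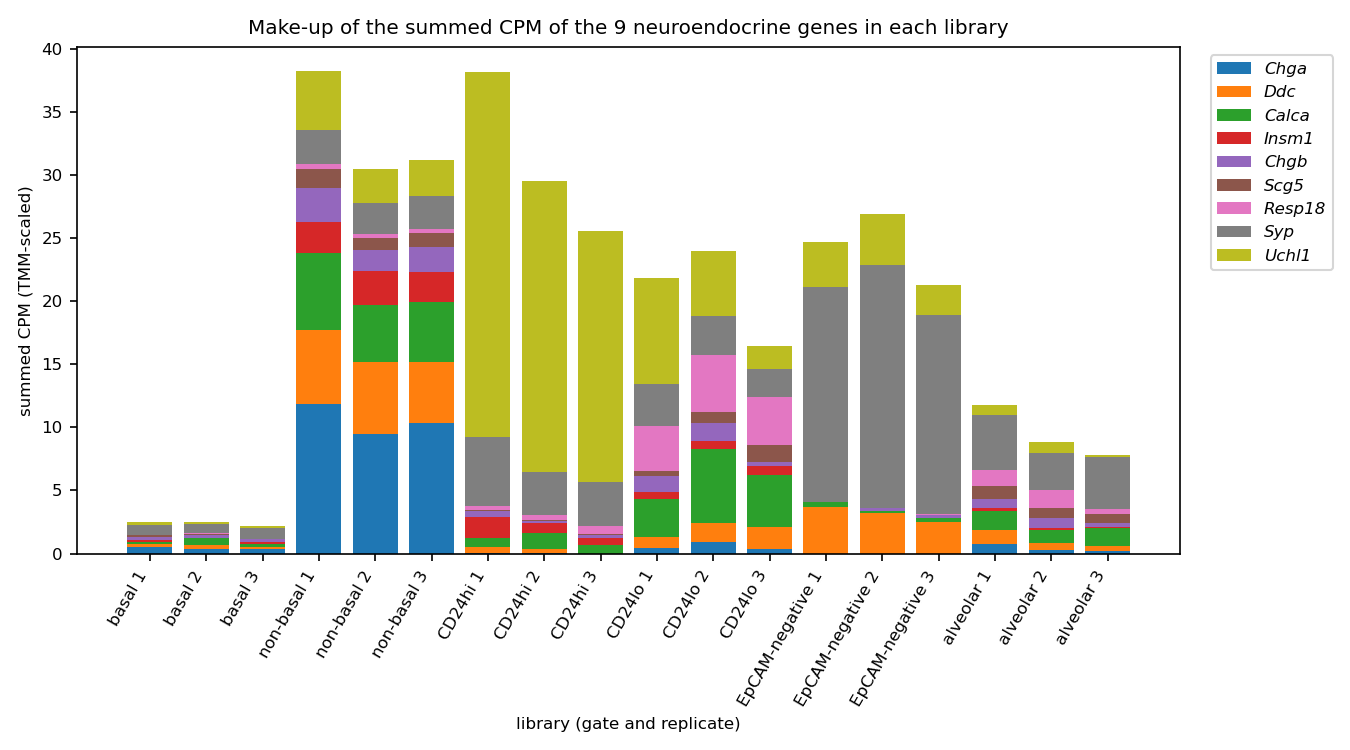
Summed CPM (scaled by TMM, a library-composition factor) of the 9 genes in each of the 18 libraries, with the share of each gene stacked. Non-basal libraries reach 30.5 to 38.2 CPM from many genes, CD24hi libraries 25.6 to 38.2 CPM mostly from Uchl1, and basal libraries stay at 2.17 to 2.50 CPM.

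**Figure D2:**
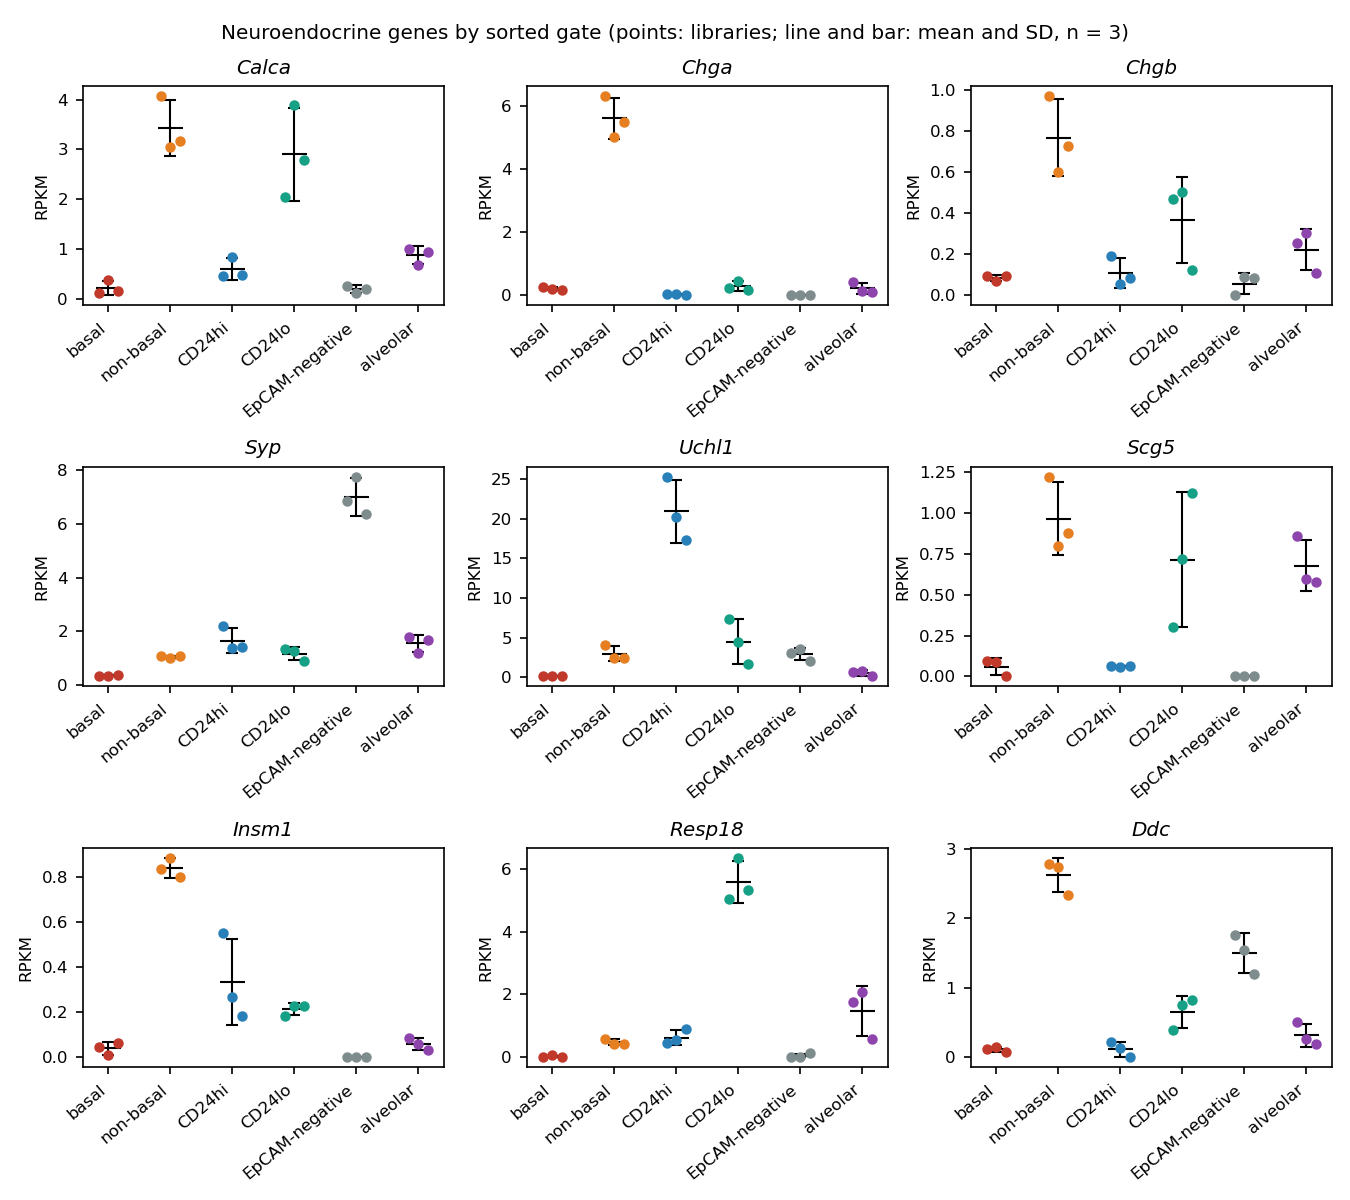
RPKM (CPM divided by gene length in kilobases) of each gene in the 6 gates on a linear axis from 0, with 1 point per library and the mean and SD of 3. Calca, Chga, Chgb, Scg5, Insm1 and Ddc are highest in non-basal cells, Syp in EpCAM-negative, Uchl1 in CD24hi and Resp18 in CD24lo cells.

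All 9 genes were higher in non-basal than in basal cells of the same tracheas, where 26.2% of all tested genes were higher (edgeR quasi-likelihood test, Benjamini-Hochberg adjusted p under 0.05). The median log2 fold change of the 9 was 4.30, against 0.02 over all tested genes. For each of the 9, every non-basal library was above every basal library, but how often this held over all tested genes was not counted. All 9 calls held in every alternative setting tried. Folds ran from 3.11 for Syp to 25.8 for Chga. As a share of the non-basal level, the basal CPM was between 2.81% and 11.2% for 8 of the genes and 32.0% for Syp. The log2 difference of Calca moved from 3.94 to 4.64 without basal library 2, which also held the only basal read of Resp18.

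Chga, chromogranin A of the dense-core granule, gave 349, 269 and 317 reads in the non-basal libraries and 18, 13 and 12 in the basal ones. In RPKM the non-basal level was 5.61 ± 0.658 and the basal 0.214 ± 0.0503 (n = 3), and the log2 difference of 4.69 had a standard error of 0.295 (edgeR adjusted p = 4.2e-09). In lung, Chga was near the limit of detection in every gate. CD24lo libraries held 5, 9 and 3 reads, alveolar libraries 9, 3 and 2, CD24hi libraries 1, 1 and 0, and EpCAM-negative libraries none. Against the 2 reads of the CD24hi gate the non-basal ratio was 208 (95% counting interval 57.5 to 1723), and against a floor of 3 reads per EpCAM-negative library it was at least 44.2-fold. The highest lung library, 0.470 RPKM in CD24lo cells, was below the lowest non-basal one at 5.02.

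Chgb, the related chromogranin B, was lower and less restricted, with 78, 47 and 61 reads in non-basal and 9, 7 and 9 in basal libraries. It was 8.74-fold higher in non-basal cells (edgeR adjusted p = 8.93e-06). In CD24lo cells its RPKM values were 0.472, 0.503 and 0.126, and 0.972, 0.604 and 0.727 in non-basal cells. The groups did not overlap, yet the 2.03-fold difference was at the threshold (edgeR adjusted p = 0.0497). It did not pass with DESeq2 (adjusted p = 0.0573) or without non-basal library 1 or 3 or CD24lo library 1 or 3 (adjusted p from 0.0560 to 0.199).

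Scg5, the chaperone of prohormone convertase 2, ranged from 0.801 to 1.22 RPKM in non-basal, 0.300 to 1.13 in CD24lo and 0.576 to 0.862 in alveolar cells. These 3 gates overlapped and their neighbours did not differ beyond their spread (edgeR adjusted p = 0.391 and 0.978). In raw reads the non-basal libraries held 44, 28 and 33, the basal ones 4, 4 and 0, the CD24hi ones 1 each and the EpCAM-negative ones none. Alveolar libraries held 12, 8 and 7 reads and CD24lo libraries 4, 9 and 12, so that among lung gates Scg5 was carried by these, at a similar depth to the CD24hi libraries. The non-basal to basal fold was 14.6 (edgeR adjusted p = 1.4e-05).

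Resp18, a protein of the regulated secretory pathway, had another order. CD24lo libraries held 39, 46 and 33 reads, or 5.06, 6.36 and 5.35 RPKM. Alveolar libraries were next at 1.74, 2.07 and 0.569 RPKM, CD24hi at 0.425, 0.522 and 0.886, and non-basal at 0.576, 0.396 and 0.413. Every CD24lo library was above every library of the other gates. It was 11.9-fold higher in CD24lo than in non-basal cells (edgeR adjusted p = 4.79e-07) and 3.76-fold higher than in alveolar cells (edgeR adjusted p = 0.000329). Within the trachea it was low, with 12, 8 and 9 reads in non-basal and 0, 1 and 0 in basal libraries, a ratio of 35.0 (95% counting interval 5.80 to 1428). Of its exonic bases, 3.88% overlap another annotated gene.

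Calca, which encodes calcitonin and the calcitonin gene-related peptide CGRP, was high in 2 gates. Non-basal libraries held 178, 129 and 145 reads and CD24lo libraries 33, 59 and 36. In RPKM these were 4.07, 3.04 and 3.17 against 2.04, 3.89 and 2.78, which overlapped (log2 difference 0.24, SE 0.294, edgeR adjusted p = 0.515). Both stood above the alveolar libraries at 0.680 to 1.01 RPKM, the CD24hi at 0.456 to 0.846, the basal at 0.115 to 0.390 and the EpCAM-negative at 0.111 to 0.270. Counts per gene do not separate the calcitonin and CGRP transcripts, and how reads shared with the paralogue Calcb were counted is not known.

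Ddc, the decarboxylase that makes serotonin and dopamine from their precursors, had 171, 163 and 150 reads in non-basal libraries and 9, 11 and 6 in basal ones, a 21.9-fold difference (edgeR adjusted p = 2.26e-08). Its next gate was EpCAM-negative, where 46, 39 and 33 reads gave 1.77, 1.54 and 1.20 RPKM against 2.79, 2.74 and 2.34 in non-basal cells. The gates did not overlap. A list of 5 mast cell markers summed to 18.1 to 21.6 CPM in the EpCAM-negative libraries and to at most 3.07 CPM in any other library, with 4 of the 5 highest there and none of the 5 without a read. Fibroblast, smooth muscle and haematopoietic markers were highest in that gate too, as given for Syp below. The part of these cells in the Ddc level was not tested. In CD24hi cells Ddc was at 6, 4 and 0 reads.

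Insm1 gave 74, 76 and 74 reads and 0.834, 0.883 and 0.797 RPKM in the non-basal libraries. Basal libraries held 5, 1 and 7 reads, a 19.7-fold difference (edgeR adjusted p = 4.43e-07). Among lung gates it was in CD24hi cells with 22, 11 and 7 reads and in CD24lo cells with 6, 7 and 6, which did not differ beyond their spread (edgeR adjusted p = 0.261). EpCAM-negative libraries had no Insm1 read, which put non-basal cells at least 10.6-fold and CD24hi cells at least 4.22-fold higher.

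Uchl1, a ubiquitin hydrolase of neurons and neuroendocrine cells, was dominated by the CD24hi gate. Its reads there were 384, 312 and 253, or 25.3, 20.2 and 17.3 RPKM. CD24lo libraries had 7.31, 4.45 and 1.61 RPKM, non-basal 4.10, 2.36 and 2.44, EpCAM-negative 3.08, 3.53 and 2.06, alveolar 0.691, 0.722 and 0.0880 and basal 0.174, 0.0964 and 0.0978. Every CD24hi library was above every other. Within the trachea it was still 23.1-fold higher in non-basal than in basal cells (edgeR adjusted p = 1.71e-06), like the other members.

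The ciliated marker list, all 6 of whose genes were highest in CD24hi cells, summed to 3914 to 4058 CPM there. In the CD24lo libraries, in the order given for Uchl1, it summed to 671, 300 and 312 CPM, and in the other gates it lay between 8.11 and 350 CPM. A list of 6 neuronal markers stayed at 0.161 to 3.63 CPM in all libraries, with Slc17a6 without a read in CD24hi cells and Prph, an intermediate filament of peripheral neurons, giving 2.70 ± 0.607 CPM of the CD24hi sum. The part of ciliated or neuronal RNA in the Uchl1 level was not tested. Of the exonic bases of Uchl1, 18.1% overlap Uchl1os on the other strand, and whether strand was used in counting is not given in the sources used here.

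Syp, the synaptic vesicle protein synaptophysin, was highest in EpCAM-negative cells with 212, 233 and 207 reads, or 6.86, 7.75 and 6.35 RPKM. It followed at 1.37 to 2.19 RPKM in CD24hi, 1.19 to 1.78 in alveolar, 0.881 to 1.34 in CD24lo and 1.01 to 1.08 in non-basal cells. Neighbours in that order did not pass the test, but non-basal cells were below alveolar cells (edgeR adjusted p = 0.0260) and, as given below, below CD24hi cells. Basal cells were lowest at 0.312 to 0.353 RPKM. Syp was 4.22-fold higher in EpCAM-negative than in CD24hi cells (edgeR adjusted p = 1.97e-08). The neuronal list summed to 0.161 to 0.743 CPM in these libraries, with Nefl, Elavl4 and Slc17a6 at 0 reads. The Schwann cell list summed to 11.3 to 17.998 CPM there and to 74.2 to 186 CPM in the other gates, all of them epithelial. Of its 6 genes, 1 was highest in EpCAM-negative cells and 0 were without a read there, while Sox10 had no read in CD24lo or alveolar cells. The fibroblast list summed to 26649 to 28139 CPM in these libraries and to at most 1104 CPM in any other, with 6 of 6 genes highest there. The smooth muscle list summed to 2758 to 2885 CPM against at most 267, with 5 of 5 highest, and the haematopoietic list to 33.1 to 90.98 CPM against at most 39.2, with 4 of 5 highest. The part of these cells in the Syp level was not tested. Of the exonic bases of Syp bases, 16.8% overlap a gene on the other strand.

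**Figure D3:**
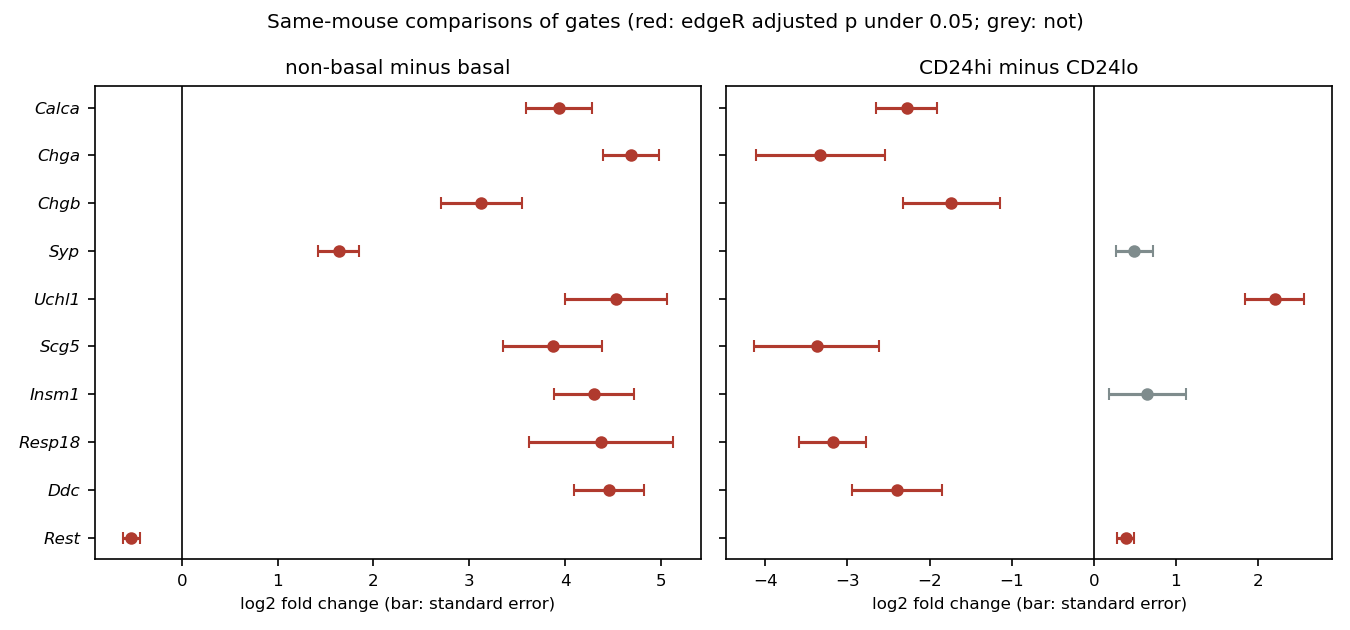
Log2 fold changes with standard errors of the 9 genes and Rest between gates of the same mice, positive where the first gate is higher. All 9 genes lie to the right for non-basal against basal. For CD24hi against CD24lo, Uchl1, Insm1, Syp and Rest lie to the right and 6 genes to the left. Insm1 and Syp did not pass an adjusted p under 0.05 there. Resp18 in basal cells and Chga and Scg5 in CD24hi cells rest on 1 to 3 reads, so their fitted values are imprecise.

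Between the airway luminal gates of lung, CD24hi cells had 1 member higher and 6 lower than CD24lo cells, where 27.8% of all tested genes were higher and 27.2% lower. Uchl1 was 4.60-fold higher in CD24hi cells (edgeR adjusted p = 5.58e-05). Lower were Calca at 4.85-fold, Ddc at 5.25-fold and Resp18 at 9.07-fold less, and Chgb at 3.33-fold less. Without CD24hi library 1 the log2 difference of Ddc moved from -2.39 to -3.10 and that of Chgb from -1.74 to -2.39. Chga, with 2 reads against 17, was higher in CD24lo cells by a ratio of 11.3 (95% counting interval 2.68 to 101), and Scg5, with 3 against 25, by 11.1 (3.38 to 57.2). The Chgb difference (edgeR adjusted p = 0.0189) overlapped between libraries and did not pass without CD24hi library 2 or 3 or CD24lo library 1 or 2 (adjusted p from 0.0565 to 0.0819). Syp had a log2 difference of 0.50 (edgeR adjusted p = 0.0663), which passed without CD24hi library 2 (adjusted p = 0.0383) or 3 (adjusted p = 0.0418).

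Against alveolar cells, CD24hi cells had 2 members higher, Uchl1 by 40.3-fold and Insm1 by 5.27-fold, where 30.5% of tested genes were higher. Lower were Chga, Scg5 and Resp18, where 31.4% of genes were lower. Chga gave a ratio of 8.60 towards alveolar cells (95% counting interval 1.98 to 78.0, 2 reads against 14), and its call did not hold without alveolar library 1, which held 9 of the 14 reads (edgeR adjusted p = 0.0767). Scg5 gave a ratio of 11.1 (3.40 to 56.9). Resp18 was 2.41-fold lower (edgeR adjusted p = 0.0282), with overlapping libraries. With the mouse as a block its adjusted p was 0.191, and it did not pass without CD24hi library 1 or 2 or alveolar library 1 or 2 (adjusted p from 0.0797 to 0.147). Ddc was not called (edgeR adjusted p = 0.0557) but passed without CD24hi library 1 (adjusted p = 0.0208) or alveolar library 3 (adjusted p = 0.0393).

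CD24lo cells had 4 members higher than alveolar cells and 0 lower, where 24.2% of tested genes were higher and 24.2% lower. At an unadjusted p under 0.05, edgeR, DESeq2 and limma voom each found 0 members lower too. The 4 were Calca at 3.29-fold, Uchl1 at 8.76-fold, Resp18 at 3.76-fold and Insm1 at 3.35-fold. The Insm1 call (edgeR adjusted p = 0.0424) did not pass when any 1 of the 6 libraries was left out (adjusted p from 0.0562 to 0.120) or with the mouse as a block (adjusted p = 0.0891). Ddc, at 1.98-fold (adjusted p = 0.098), passed without CD24lo library 1 (adjusted p = 0.0436) or alveolar library 1 (adjusted p = 0.0431). This comparison, and that of non-basal with CD24lo cells, were added after the values had been seen.

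Against EpCAM-negative cells, CD24hi cells had 4 members higher and 2 lower, where 35.6% of tested genes were higher and 36.7% lower. Higher were Uchl1 by 7.26-fold, Calca by 2.99-fold, Insm1, and Resp18 with 17 reads against 1, a ratio of 16.2 (95% counting interval 2.54 to 679). The single EpCAM-negative read of Resp18 was in library 3. Lower were Syp by 4.22-fold and Ddc by 12.1-fold, the latter a log2 difference of -3.60 that moved to -4.30 without CD24hi library 1. The Calca difference (edgeR adjusted p = 0.0164) did not pass without CD24hi library 2 (adjusted p = 0.0858) or EpCAM-negative library 2 (adjusted p = 0.0659).

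Across organs, non-basal tracheal cells had 6 members higher than CD24hi lung cells and 2 lower, where 31.5% of tested genes were higher and 36.9% lower. Higher were Ddc by 21.1-fold, Chgb by 6.77-fold, Calca by 5.73-fold and Insm1 by 2.49-fold, with Chga as given above and Scg5 at a ratio of 15.6 (95% counting interval 5.19 to 76.9). Without CD24hi library 1 the log2 difference of Ddc moved from 4.40 to 5.11 and that of Chgb from 2.76 to 3.41. Uchl1 was 7.04-fold and Syp 1.57-fold higher in CD24hi cells, and the Syp call (edgeR adjusted p = 0.00772) did not pass without CD24hi library 1 (adjusted p = 0.0754). Against CD24lo cells, 4 members were higher in non-basal cells, where 25.3% of tested genes were, and 1, Resp18, was lower, where 27.8% were. The 4 were Chga at 18.3-fold, Ddc at 4.02-fold, Insm1 at 3.93-fold and Chgb. Uchl1 did not pass (adjusted p = 0.185), and without CD24lo library 3 it was called lower in non-basal cells (adjusted p = 0.0193). Organ, mice, dissociation and sequencing depth all differed between these gates and cannot be told apart from cell type.

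Rest, which represses neuronal genes in other cells, was 1.44-fold lower in non-basal than in basal cells (edgeR adjusted p = 0.000153), yet 1.31-fold higher in CD24hi than in CD24lo cells (edgeR adjusted p = 0.00407).

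Of 51 further neuroendocrine genes in a wider list, 38 were tested, and 25 were higher and 6 lower in non-basal than in basal cells, and the median of their log2 fold changes was 1.71. Of the 17989 tested genes 26.2% rose and 21.9% fell, the median being 0.02, and the same shares apply to the counts by role that follow. Of 5 tested regulators, 4 were higher, among them St18 at 3.16-fold, Prox1 at 3.89-fold and Myt1 at 9.44-fold. Of 9 tested genes for granins and peptide processing, 6 were higher and 1 lower. Pcsk1, prohormone convertase 1, was at 0.262 CPM in basal and 4.92 CPM in non-basal cells (18.3-fold). Ptprn2 of the granule membrane was at 1.15 and 14.2 CPM (12.3-fold), and Pam, which amidates peptides, at 491 and 745 CPM (1.52-fold). Of 12 vesicle release genes, 10 were higher and 1 lower. Their log2 fold changes had a median of 1.36. The 3 most abundant had folds of 1.30 for Vamp2, 1.38 for Cplx2 and 1.80 for Rab3a. Snap25 of the fusion complex, a less abundant gene chosen after its values were seen, had 165 reads in non-basal and 11 in basal libraries (17.0-fold). Of 6 surface and other genes, 4 were higher, led by the chemokine Cxcl13 at 35.5-fold, while the guidance receptors Robo1 and Robo2 were 1.99-fold and 5.42-fold lower. Of 2 tested amine genes, the vesicular transporter Slc18a1 was 9.07-fold higher and Slc18a2 2.18-fold lower.

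Of 4 tested peptide genes other than Calca, 0 passed between the tracheal gates with edgeR or DESeq2. At an unadjusted p under 0.05 both called 1, Calcb, lower in non-basal cells, and limma voom called it lower after adjustment. Calcb was abundant in both, at 11.7 CPM in basal and 7.52 CPM in non-basal cells (edgeR adjusted p = 0.0573), and Nmb was at 0.714 and 0.894 CPM (adjusted p = 0.503). Cck was below the filter in every gate, at 0.0778 CPM or less in the trachea. Tph1, which makes serotonin's precursor, was likewise untested, with 2 reads over the non-basal and 2 over the basal libraries.

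In lung, 17 of the 38 wider list genes were lower and 5 higher in CD24hi than in CD24lo cells, against 27.2% lower and 27.8% higher over all tested genes. Their median log2 fold change was -1.33, where that of all tested genes was -0.06. Among 9 genes for granins and processing, 7 were lower, including Pcsk1 at 9.39-fold and Pam at 3.39-fold less, and Ptprn2 was 1.84-fold higher. Among 12 vesicle genes, 5 were lower and 2 higher, with Vamp2 1.69-fold lower and Cplx2 2.22-fold higher. Nmb was 4.50-fold higher in CD24hi cells, while Slc18a1 (adjusted p = 0.116) and Slc18a2 (adjusted p = 0.0514) did not pass with edgeR. Against alveolar cells, CD24hi cells had 11 of the 38 lower and 5 higher, where 31.4% and 30.5% of all tested genes were. Against EpCAM-negative cells 15 were lower and 9 higher, where 36.7% and 35.6% of all were. In the comparison of non-basal with CD24hi cells 22 were higher and 7 lower, where 31.5% and 36.9% of all were. With CD24lo cells 16 were higher and 10 lower, where 25.3% and 27.8% of all were. The lower counts against alveolar, EpCAM-negative and CD24lo cells were thus near the share over all genes.

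The 9 members did not share a single profile. As a description over the 18 libraries, which share depth and organ, Calca had a Pearson r of 0.872 to the mean standardized profile of the other members, Chgb 0.814, Insm1 0.733, Scg5 0.690, Chga 0.659 and Ddc 0.572. Resp18 had 0.355, Uchl1 0.229 and Syp -0.113. Of 14676 other genes, those closest to the mean profile of the 9 were an unnamed gene (Entrez 100504712, r 0.948), 2700046G09Rik (0.914), Acss2 (0.892), Amt (0.891), Snx11 (0.889), Ccdc69 (0.884), Insrr (0.878), P2rx4 (0.877), Inpp5j (0.875) and Foxa3 (0.873). None of these is in the wider neuroendocrine list, but Pcsk1 of that list ranked 12 at the same r of 0.873 as Foxa3. Ptprn2 ranked 89 (0.766), while Cpe (-0.466) and Stx1a (-0.540) were far from the mean profile. Among the genes closest to Chga alone, a ranking added after the values were seen, were Itln1 (0.964), Sult1c2 (0.964) and Sult1c1 (0.952). These are not in the wider list, but genes of that list were close to Chga too. They include Scg2 (0.952), Snap25 (0.921) and Cadps (0.912), while others were not close, such as Cpe (-0.592) and Stx1a (-0.680). In the non-basal gate Itln1 had 25.6 ± 3.28 RPKM (SD, n = 3), against a mean of at most 0.817 RPKM in any other gate, so that its r describes mainly the distance of the non-basal libraries from the rest.

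Markers of other cells also differed between the tracheal gates. The club list summed to 61820 to 68782 CPM in non-basal and 14367 to 16533 CPM in basal libraries. The ciliated list summed to 214 to 350 against 17.1 to 24.1 CPM. The mesothelial list, with 1 of its 4 genes highest in non-basal cells, summed to 2594 to 2682 against 218 to 270 CPM. Lower in non-basal libraries were the fibroblast list, at 67.1 to 116 against 333 to 339 CPM, and the basal and Schwann cell lists. The tuft list summed to 101 to 138 CPM in non-basal and 41.2 to 49.3 CPM in basal libraries, with 5 of its 6 genes highest in the non-basal gate. The ionocyte list summed to 14.996 to 19.3 CPM in non-basal and 2.40 to 4.10 CPM in basal libraries, with 2 of its 4 genes highest in the non-basal gate. It summed to 19.4 to 25.3 CPM in CD24lo and 99.2 to 117 CPM in alveolar libraries, where Foxi1 had no read. The neuronal list summed to 1.34 to 1.76 CPM in non-basal and 0.199 to 0.332 CPM in basal libraries. Most of the neuronal sum in non-basal cells was Elavl4 at 1.19 ± 0.289 CPM, and Slc17a6 had no read in either tracheal gate. The part of these cells in the members' levels was not tested. Mouse 1 had the highest CPM for 7 of the 9 genes within the non-basal gate, and mouse 4 for 6 of the 9 in both the CD24hi and the alveolar gate.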

How the data were processed

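RNA from cells sorted by FACS was sequenced as single-end reads. The authors aligned the reads to mm10, counted them per Entrez gene with featureCounts and deposited raw counts with a gene length, without normalization or pooling. Symbols and coordinates came from the RefSeq gene table of GRCm38.p6, which matched 25275 identifiers. There were 0 columns of unmapped samples.

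CPM were scaled by TMM, and RPKM used the deposited length. The 17989 genes over 0.2 CPM in 3 or more of the 18 libraries entered one fit of 6 gates in edgeR 4.0.16 (R 4.3.3), tested by quasi-likelihood with Benjamini-Hochberg adjustment across them in each comparison. Standard errors were taken from the log2 fold change and its F value. Ratios on 1 to 3 reads carry exact 95% intervals from pooled reads, which like the floor of 3 reads cover counting error only. The alternatives were other scalings, filters and tools (DESeq2 1.42.0, limma 3.58.1 voom), fits of 6 libraries with and without a replicate block, and leaving out each library. Thinning was used across organs. The scripts were tested on simulated data.

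Same-numbered libraries of an organ come from the same mouse by the labels. Their deviations from the gate means correlated at 0.476, 0.203 and 0.333 between the tracheal gates and at 0.358, 0.081 and 0.280 between CD24hi and CD24lo. Across organs only the number is shared. The lowest chi-square per degree of freedom between replicates was 3.50.

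The members, lists and tests were chosen with earlier results of these data known. Genes of the wider list are named if they are Rest or among the 3 of their role with the highest CPM in non-basal cells, where the summed CPM of the members was highest. Another gene that the rule names is not reported here. Genes of similar profile are the 10 with the highest r among those with a mean of at least 1 CPM. Marker lists of other cells are given as a description, and not every list is printed.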

Additional observations from a re-analysis of the deposited data

How the results depend on the processing

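Of 900 member fold changes under alternative settings, 847 kept their direction and side of the threshold, 35 no longer passed, 11 newly passed and 7 changed sign, none of the 7 significant in either fit. Syp for CD24hi against alveolar fell to -0.15 without CD24hi replicate 1 and -0.060 without alveolar replicate 2 (range to 0.22 when leaving out each library). For CD24lo against alveolar, Scg5 was -0.11 with voom, -0.42 without CD24lo replicate 3, -0.061 without alveolar replicate 2 and -0.060 without alveolar replicate 3 (range to 0.42), and Chga -0.071 without CD24lo replicate 2 (range to 1.22). With library size alone, members higher in CD24hi than CD24lo numbered 2 and the basal summed CPM was 2.82. The median of all genes then moved to -0.31 for non-basal against basal, 0.21 for CD24hi against CD24lo, 0.29 against alveolar and -0.34 for non-basal against CD24hi, and calls in these 4 comparisons became 2989 higher and 7780 lower (4720 and 3948 with TMM), 7002 and 3233 (4998 and 4901), 7285 and 3858 (5479 and 5652), and 4192 and 8153 (5659 and 6640). Thinning the tracheal libraries moved the last median to -0.13. With the replicate block, 7 wider list genes were lower in CD24hi than alveolar cells. Across organs, where numbers pair no mice, 1 member was lower in non-basal than CD24hi cells under the block, since Syp had an adjusted p of 0.0678, and Chgb against CD24lo one of 0.0639. Within an organ the block changed no other member call than those of Resp18 and Insm1 given above. Leaving out 1 library, members higher in CD24hi than CD24lo ranged from 1 to 2, lower in CD24hi than alveolar from 1 to 4, lower in non-basal than CD24hi from 1 to 2 and than CD24lo from 1 to 2, and wider list genes lower in non-basal than CD24lo, which numbered 6 without CD24lo library 1, from 6 to 10. The cause was not tested. Below about 10 reads per library, as for Chga in every lung library and Scg5 and Chgb in most, 3 libraries limit what can be told apart.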
